A study of Homo sapiens with 18 samples.

Results

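EGR1, EGR2, EGR3, IER2, IER3, IER5 and SRF are 7 genes of the immediate early response: 3 EGR transcription factors, 3 IER genes and SRF, a transcription factor that acts in front of many of them. They were picked by gene symbol from a table of 55128 genes, in which each symbol had 1 row, and their levels were read in all 18 libraries. The libraries came from T98G cells, an established human glioblastoma line grown in culture, and every group was treated for 2 h. The 6 groups of 3 biological replicates, labelled A, B and C, were as follows. The combination 2DG + Phen held 10 mM of 2DG, the glucose analogue 2-deoxyglucose (DEOX in the sample labels), with 100 µM of phenformin, a biguanide that blocks complex I of the respiratory chain (Phen here, PHEN in the labels). The combination GH + Phen held 8 µM of gnetin H, an oligostilbene (GH here, GNET in the labels), with 100 µM of phenformin. The single agents were 2DG at 10 mM, GH at 8 µM and phenformin at 100 µM, and the solvent group received DMSO. All groups share the same cell line and time, and a single line at a single time is all that these values describe. For 2DG the sample labels and the methods of the study give the same dose, and the study's results text gives another, so which of them was used cannot be told here.

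The values are FPKM, counts of sequenced fragments divided by exon length in kilobases and by library size, from polyadenylated RNA. The libraries held 18417756 to 22497604 mapped fragments. FPKM is a share of a library's fragments: a change in a few cells and a smaller change in all cells, or fewer cells and less RNA per cell, cannot be told apart. The cells carried the mesenchymal transcripts VIM, at 808 to 1063 FPKM, and CD44, at 310 to 379 FPKM, in every library. The glial markers GFAP, S100B and SOX2 and the progenitor marker NES were at 0 or under 0.05 FPKM in all 18. Of the other T98G and glioma markers listed, CHI3L1 was at 0.029 to 0.18 FPKM and OLIG2 at 0.030 to 0.14 FPKM. TNC was at 5.19 to 9.56 FPKM, and FN1, S100A6 and ANXA1 were higher than that in every library. Of 18 markers of other cell types, 17 stayed under 1 FPKM, and KRT18 lay between 11.7 and 23.2 FPKM.

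Immediate early genes are switched on within minutes of a signal, before any new protein is made. Growth factors and many stresses act through the RAF, MEK and ERK kinases, which phosphorylate the ternary complex factors ELK1, ELK3 and ELK4. These sit with SRF on CArG boxes, short AT-rich sites flanked by CC and GG, in front of EGR1 and other genes of this class. EGR1, EGR2 and EGR3 are zinc finger proteins that bind a GC-rich site and are held in check by their corepressors NAB1 and NAB2. IER2 and IER5 are related proteins that act in the nucleus, and IER5 is known to promote the activity of the heat shock factor HSF1. IER3 is an unrelated membrane-anchored protein with roles in cell survival and NF-kB signalling.

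The stretches of 250 bases in front of the start sites of 4 members are shown because they separate members with CArG boxes, in capitals, from those with none in this window. The sequences are from RefSeq on GRCh38.p14, in which 5 of the 7 members were matched by symbol, and are written 5′ to 3′ on the strand of the gene, + for all 4. They lie at chr5:138465229-138465478 for EGR1, chr6:43171019-43171268 for SRF, chr19:13150161-13150410 for IER2 and chr1:181088450-181088699 for IER5.
EGR1: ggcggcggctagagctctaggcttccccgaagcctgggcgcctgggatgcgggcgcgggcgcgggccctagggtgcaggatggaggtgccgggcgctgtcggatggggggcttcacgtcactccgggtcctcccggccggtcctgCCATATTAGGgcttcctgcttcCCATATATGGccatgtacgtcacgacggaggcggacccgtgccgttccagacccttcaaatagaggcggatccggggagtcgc
SRF: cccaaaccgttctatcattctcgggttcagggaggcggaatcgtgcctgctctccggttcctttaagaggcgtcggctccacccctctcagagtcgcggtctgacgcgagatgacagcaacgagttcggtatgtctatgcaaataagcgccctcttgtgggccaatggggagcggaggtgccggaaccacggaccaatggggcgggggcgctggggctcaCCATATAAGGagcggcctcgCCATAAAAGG
IER2: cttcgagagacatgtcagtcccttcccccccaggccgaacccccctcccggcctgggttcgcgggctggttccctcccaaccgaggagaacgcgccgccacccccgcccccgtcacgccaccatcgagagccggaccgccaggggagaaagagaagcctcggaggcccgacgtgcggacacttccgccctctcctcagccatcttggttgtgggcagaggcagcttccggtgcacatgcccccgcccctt
IER5: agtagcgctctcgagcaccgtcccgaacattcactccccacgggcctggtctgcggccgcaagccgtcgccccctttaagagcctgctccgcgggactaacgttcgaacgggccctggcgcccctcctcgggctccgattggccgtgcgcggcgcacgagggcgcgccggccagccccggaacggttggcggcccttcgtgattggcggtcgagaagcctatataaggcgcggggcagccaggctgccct

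EGR1 had CArG boxes at -105 to -96 and at -83 to -74, counted back from the start site at 0, and SRF had them at -30 to -21 and at -10 to -1. A further start site of SRF, not shown, had none in its stretch, and neither IER2 nor IER5 had one. Of 35114 promoter stretches of the same length, 407 or 1.16% held a CArG box on either strand. EGR2, of which 3 start sites were listed, had one at -71 to -62 of the last of them. The EGR site, GCGNGGGCG, was present in EGR1 at -198 and in SRF at -49, and in 8.41% of all stretches. The string CCGGAA, a strict form of the ETS site, was present in SRF, IER2 and IER5, and in 14.5% of all. Looser forms of the ETS site were not searched, so its absence from EGR1 holds for this string only. The paired heat shock element GAANNTTC was present in IER5, at -226 to -219, and in 11.6% of all. The short site TGACG, part of the cAMP response element, was present in EGR1, SRF, EGR2 and IER2, and in 21.2% of all. Both strands were searched, and none of these matches in the 4 printed stretches overlapped another. They describe the letters of the stretches, and no binding was measured.

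The 5 members that were measured above a few fragments followed different orders across the groups. EGR1 and IER3 were highest in 2DG + Phen, and IER2 and IER5 were highest in 2DG alone. Each group of SRF overlapped the next in the order of means. For a gene to enter the test it had to reach 0.5 FPKM in at least 3 libraries. EGR1, IER2, IER3, IER5 and SRF did, as 5 of the 7 members and among 12108 genes in all. EGR1 would also have entered without the 2DG + Phen libraries, since 6 of the other 15 reached that level.

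**Figure D1:**
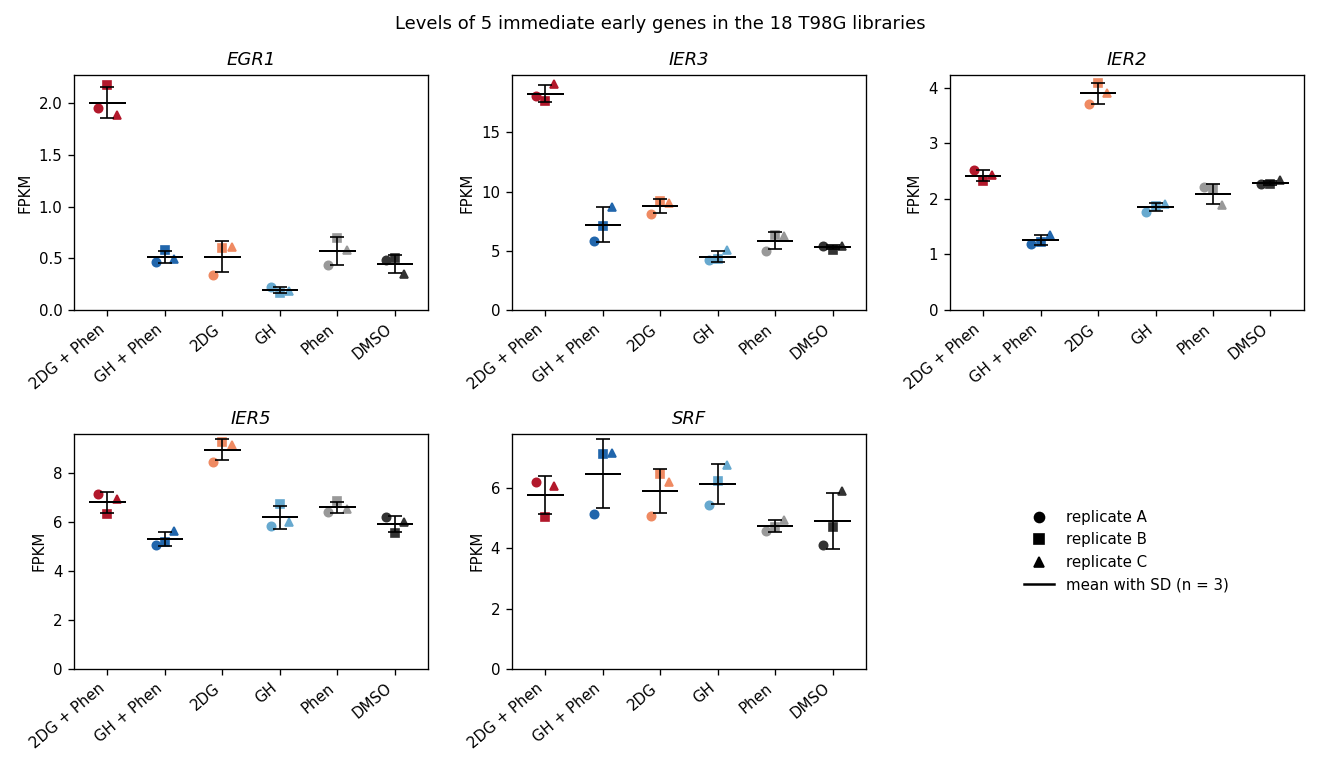
FPKM (vertical axes, from 0) of EGR1, IER3, IER2, IER5 and SRF in each of 18 T98G libraries by group, with symbols for replicates A, B and C and a line and bar for the mean and SD of 3 libraries. EGR1 and IER3 stand highest in 2DG + Phen, IER2 and IER5 in 2DG, and each group of SRF overlaps the next in the order of means.

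EGR1 (ENSG00000120738) lies at chr5:138465490-138469315 on the + strand of GRCh38, with 3138 bases of exon. It was measured at 1.96, 2.18 and 1.89 FPKM in the 2DG + Phen libraries A, B and C, against 0.480, 0.506 and 0.349 FPKM in DMSO. These came from 129, 144 and 128 fragments with 2DG + Phen, against 31, 31 and 22 with DMSO. The 3 combination libraries lay far above every other library of the series. EGR1 was measured at 0.467, 0.580 and 0.497 FPKM in GH + Phen, at 0.342, 0.598 and 0.606 FPKM in 2DG and at 0.432, 0.698 and 0.582 FPKM in phenformin. All of these groups overlapped DMSO. The GH libraries, at 0.225, 0.165 and 0.184 FPKM, lay below all the others, on 10 to 13 fragments each. The order of the means was thus 2DG + Phen, phenformin, 2DG, GH + Phen, DMSO and GH, and only its first and its last step separated groups that did not overlap.

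The mean of EGR1 was 2.01 ± 0.151 FPKM in 2DG + Phen and 0.445 ± 0.0841 FPKM in DMSO (SD, n = 3 each), a ratio of 4.51. On the log2(FPKM + 0.1) scale, which understates the change of a gene at this level, the difference was 1.96 ± 0.20 (SE), and EGR1 rose in limma's moderated test with Benjamini-Hochberg adjustment over all genes tested (adjusted p = 2.4e-06). It fell in GH, by 0.90 ± 0.20 on that scale (limma, adjusted p = 0.014), with 3 of 3 GH libraries below 3 of 3 DMSO libraries. This call was lost when DMSO A, DMSO B, GH B or GH C was left out, with limma adjusted p of 0.054 to 0.069, and in a fit of the 6 libraries alone, with an adjusted p of 0.13. Over all its alternatives the adjusted p ran from 0.0058 to 0.13. Neither 2DG nor phenformin alone moved EGR1 past the threshold, with differences from DMSO of 0.15 (95% interval -0.26 to 0.57) and 0.29 (-0.13 to 0.71).

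EGR2 (ENSG00000122877, chr10:62811996-62919900, - strand) and EGR3 (ENSG00000179388, chr8:22687659-22693302, - strand) are the relatives of EGR1 that early growth signals induce in many tissues. EGR2 had 0 to 5 fragments in a library and 21 in all 18, and EGR3 had 0 to 3 and 13 in all. Their highest levels were 0.0646 and 0.0293 FPKM, so neither entered the test. EGR2 had 6 fragments in the 3 libraries of 2DG + Phen together, a pooled level of 0.0255 FPKM with an exact Poisson 95% interval of 0.0094 to 0.0556, against 4 fragments in DMSO, 0.0180 FPKM with an interval of 0.0049 to 0.0461. EGR3 had 4 fragments in 2DG + Phen, 0.0129 FPKM (0.0035 to 0.0331), against 2 in DMSO, 0.0068 FPKM (0.0008 to 0.0247). The intervals cover counting error only, and they overlap widely. No difference in EGR2 or EGR3 between these groups was detectable at this depth.

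**Figure D2:**
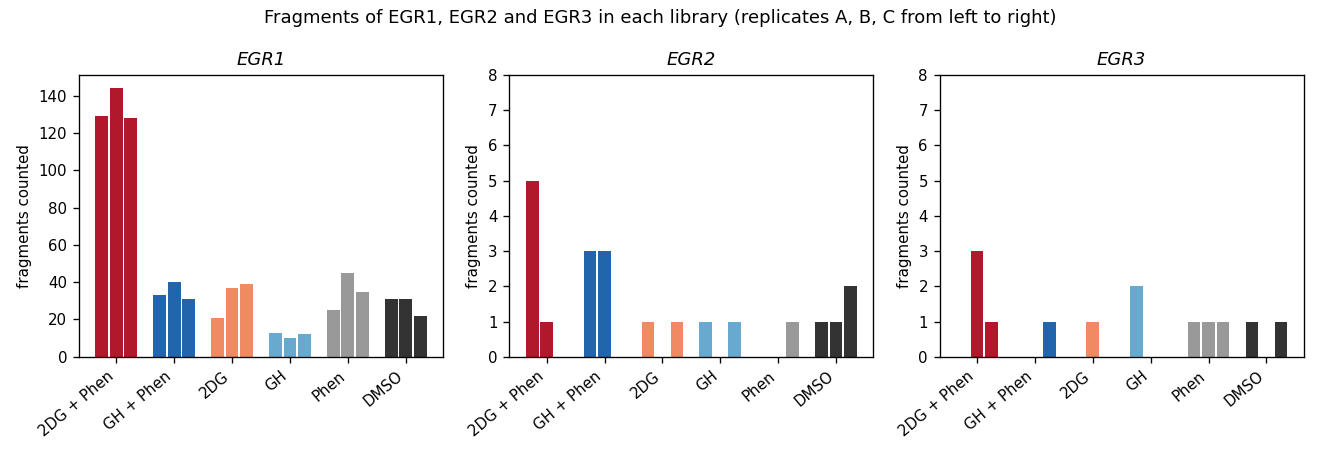
Fragments counted per library (vertical axes, with a separate scale for EGR1) for EGR1, EGR2 and EGR3, with 1 bar for each of the replicates A, B and C of a group. EGR1 reaches 128 to 144 fragments in 2DG + Phen and 22 to 31 in DMSO, while EGR2 stays at 0 to 5 and EGR3 at 0 to 3 in every group.

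IER3 (ENSG00000137331, chr6:30743199-30744554, - strand, 1356 bases of exon) had the largest response of the IER genes. It was measured at 18.03, 17.7 and 19.1 FPKM in 2DG + Phen, against 5.37, 5.10 and 5.40 FPKM in DMSO. Its levels were 8.07, 9.23 and 9.06 FPKM in 2DG. The 2DG + Phen libraries lay above all others, and the 2DG libraries lay above DMSO, phenformin and GH. GH + Phen gave 5.80, 7.12 and 8.72 FPKM, the widest spread between replicates of any group. Phenformin gave 5.003, 6.32 and 6.27 FPKM and GH gave 4.204, 4.31 and 5.03 FPKM. The order of the means was 2DG + Phen, 2DG, GH + Phen, phenformin, DMSO and GH, and the groups from 2DG to DMSO each overlapped the next.

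On the log2(FPKM + 0.1) scale IER3 rose 3.41-fold in 2DG + Phen, a log2 difference from DMSO of 1.77 ± 0.12 (SE, limma adjusted p = 6.7e-08), and 1.65-fold in 2DG, a log2 difference of 0.72 ± 0.12 (limma adjusted p = 0.00048). In GH + Phen it rose by 0.42 ± 0.12 on the log2 scale (limma adjusted p = 0.020). That last call was lost without DMSO B, GH + Phen B or GH + Phen C, the last of which held the highest value, with a limma adjusted p of 0.056 to 0.11. In GH alone every library lay below every DMSO library, by 0.23 on the log2 scale, which did not pass the threshold (limma adjusted p = 0.37). A non-coding gene on the opposite strand, AL662797.2, overlaps IER3 and reached at most 0.271 FPKM, and the reads were mapped by strand.

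IER2 (ENSG00000160888, chr19:13150415-13154908, + strand, 3072 bases of exon) was measured at 3.71, 4.09 and 3.90 FPKM in 2DG, against 2.28, 2.27 and 2.33 FPKM in DMSO. The levels with 2DG + Phen overlapped those of DMSO, at 2.51, 2.32 and 2.44 FPKM. GH + Phen gave the lowest values of the series, 1.19, 1.23 and 1.36 FPKM. GH gave 1.77, 1.87 and 1.91 FPKM and phenformin gave 2.21, 2.19 and 1.89 FPKM. The replicates of IER2 lay close together, and 2DG at the top and GH + Phen at the bottom were each separated from the next group.

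IER2 rose 1.67-fold in 2DG, by 0.74 ± 0.07 on the log2 scale (SE, limma adjusted p = 4.9e-06). It fell in GH + Phen by 0.82 ± 0.07 (limma adjusted p = 1.8e-06), 1.76-fold, and in GH by 0.30 ± 0.07 (limma adjusted p = 0.024). The fall in GH was lost when any of the 6 libraries compared was left out, with limma adjusted p of 0.055 to 0.099, so it rests on all of them. In 2DG + Phen the difference from DMSO was 0.08 (95% interval -0.08 to 0.23), which did not pass the threshold.

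IER5 (ENSG00000162783, chr1:181088712-181092899, + strand, 4188 bases of exon) was measured at 8.48, 9.29 and 9.15 FPKM in 2DG, against 6.20, 5.57 and 6.01 FPKM in DMSO. The 2DG libraries lay above the 15 others. 2DG + Phen gave 7.14, 6.34 and 6.95 FPKM, GH + Phen gave 5.08, 5.20 and 5.63 FPKM, GH gave 5.86, 6.73 and 6.01 FPKM and phenformin gave 6.43, 6.87 and 6.55 FPKM. Below 2DG, each group overlapped the next.

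IER5 rose 1.51-fold in 2DG, by 0.59 ± 0.07 on the log2 scale (SE, limma adjusted p = 1.7e-05), and in 2DG + Phen by 0.20 ± 0.07 (limma adjusted p = 0.023). The smaller rise was lost without DMSO B, 2DG + Phen A or 2DG + Phen C, with limma adjusted p of 0.077 to 0.10. In GH + Phen the difference from DMSO was -0.16 (95% interval -0.30 to -0.02; limma adjusted p = 0.083).

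SRF (ENSG00000112658, chr6:43171299-43181507, + strand, 4202 bases of exon) was measured at 5.14, 7.12 and 7.15 FPKM in GH + Phen and at 6.19, 5.03 and 6.07 FPKM in 2DG + Phen, against 4.10, 4.70 and 5.91 FPKM in DMSO. It was at 5.44, 6.22 and 6.75 FPKM in GH, at 5.06, 6.45 and 6.18 FPKM in 2DG and at 4.57, 4.69 and 4.94 FPKM in phenformin. Except in phenformin, replicates of a group spread over more than 1 FPKM, and every group overlapped the next in the order of means. The phenformin libraries lay below every library of 2DG, GH, 2DG + Phen and GH + Phen. Against DMSO no treatment moved SRF past the threshold without a replicate block. With such a block GH + Phen and 2DG passed, as given at the end. The nearest without it was GH + Phen, with a log2 difference of 0.39 ± 0.15 (SE, limma adjusted p = 0.059). Without DMSO C, the highest DMSO library, this became 0.53, and without GH + Phen A, the lowest of its group, it became 0.55, with limma adjusted p of 0.013 and 0.0058. Leaving out both, chosen after seeing the data, gave 0.69 (limma adjusted p = 0.00045), the lowest over the alternatives, of which the highest was 0.95.

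Read comparison by comparison, all of which share the 3 DMSO libraries, 3 of the 5 members tested rose in 2DG, where 24.7% of all genes tested rose. IER2, IER3 and IER5 were those 3. The share of all genes is large, so a rise in 2DG is common among the genes measured. In GH, 2 of 5 fell, EGR1 and IER2, where 3.63% of all genes fell. In phenformin 0 of 5 passed in either direction by limma, against 0.545% of all genes. At an unadjusted p under 0.05 there was 1 of 5, IER5, at 0.16 on the log2 scale, where 10.6% of all genes were, and the adjusted count was 0 under every alternative, voom weights on the recovered fragments included. In 2DG + Phen 3 of 5 rose, EGR1, IER3 and IER5, against 21.1% of all genes. The rule that the study used for its calls asks for a fold of at least 2 and a Bonferroni p of at most 0.05. It also asks for a mean of at least 1 FPKM in the higher group. The study set this rule on the output of its CLC tool. Here and below it was set on limma's p-values and log2(FPKM + 0.1) folds, so the calls are not the study's own. By it EGR1 and IER3 were higher in 2DG + Phen, 2 of 5, against 0.463% of all genes. In GH + Phen 1 of 5 rose, IER3, against 9.4% of all genes, and 1 of 5 fell, IER2, against 18.6%.

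**Figure D3:**
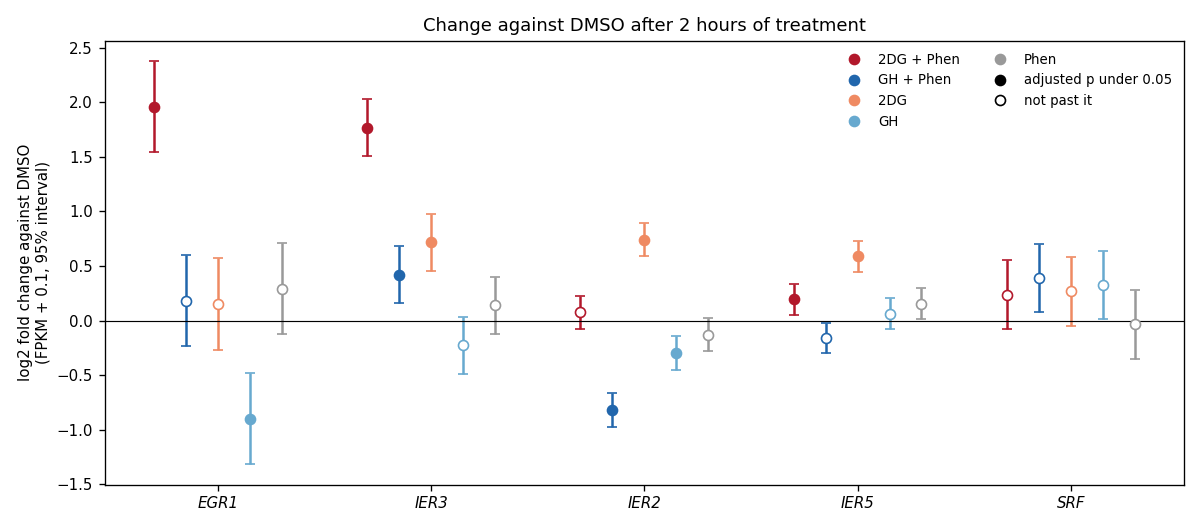
Difference from DMSO on the log2(FPKM + 0.1) scale (vertical axis) with its 95% interval for 5 members and 5 treatments, filled where limma's adjusted p was under 0.05. EGR1 and IER3 are at 1.96 and 1.77 in 2DG + Phen, while IER2 is at 0.08 there and at 0.74 in 2DG alone.

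The combinations were set against their single agents to ask what phenformin added. In 2DG + Phen against 2DG, EGR1 was 1.81 ± 0.20 higher on the log2 scale (SE, limma adjusted p = 2.3e-05) and IER3 was 1.05 ± 0.12 higher (limma adjusted p = 4.2e-05). In the same comparison IER2 fell by 0.67 ± 0.07 (limma adjusted p = 2.2e-05) and IER5 fell by 0.39 ± 0.07 (limma adjusted p = 0.00098). Thus 2 of 5 rose, against 3.53% of all genes, and 2 of 5 fell, against 7.69%. By the study's call rule EGR1 and IER3 were higher, against 0.107% of all genes. In 2DG + Phen against phenformin, EGR1 rose by 1.67, IER3 rose by 1.63 and IER2 rose by 0.20, 3 of 5, where 29.2% of all genes rose. The IER2 call was lost without Phen C, 2DG + Phen A or 2DG + Phen C (limma adjusted p of 0.058 to 0.12), in a fit of the 6 libraries alone (0.067) and with quantile normalization (0.56), and it turned to -0.61 with the GC trend described below removed. EGR1 and IER3 met the study's rule there too, against 0.487% of all genes.

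In GH + Phen against GH the same 4 members passed, with the same signs: EGR1 rose by 1.08 ± 0.20 (SE, limma adjusted p = 0.0023), IER3 rose by 0.65 ± 0.12 (limma adjusted p = 0.0029), IER2 fell by 0.52 ± 0.07 (limma adjusted p = 0.00028) and IER5 fell by 0.22 ± 0.07 (limma adjusted p = 0.040). EGR1 in GH + Phen was not above DMSO, as given above, so its rise is relative to the low GH libraries. These were 2 of 5 up, against 3.3% of all genes, and 2 of 5 down, against 9.22%. In a fit of those 6 libraries alone none of the 4 passed, with limma adjusted p of 0.067 to 0.24. Over all alternatives the adjusted p of IER5 ran from 0.021 to 0.24, and without GH B or GH + Phen B it was 0.19 or 0.13. In GH + Phen against phenformin, SRF rose by 0.43 ± 0.15 (limma adjusted p = 0.029), 1 of 5, against 23.5% of all genes, and IER2 and IER5 fell, by 0.69 and 0.32, 2 of 5, against 24.2%. The SRF call was lost without Phen A, Phen B, GH + Phen B or GH + Phen C (limma adjusted p of 0.069 to 0.12). It was also lost in a fit of the groups compared alone (limma adjusted p = 0.067) and with no filter on low values (0.062). With the GC trend described below removed, SRF turned to -0.18.

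The 2 combinations differed from each other in 4 of the 5 members. In 2DG + Phen against GH + Phen, EGR1 was 1.78 ± 0.20 higher on the log2 scale (SE, limma adjusted p = 3.7e-05) and IER3 was 1.35 ± 0.12 higher (limma adjusted p = 6.4e-06). IER2 was 0.89 ± 0.07 higher (limma adjusted p = 1.7e-06) and IER5 was 0.35 ± 0.07 higher (limma adjusted p = 0.0028). The IER5 call was lost in a fit of the groups compared alone (limma adjusted p = 0.10). Only 2.16% of all genes tested rose in this comparison. By the study's rule EGR1 and IER3 were higher, against 0.116% of all genes. SRF differed by -0.15 (95% interval -0.47 to 0.16). The agents paired with phenformin differ in kind and in dose, 10 mM of 2DG and 8 µM of GH, so these are differences between the treatments as given.

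The interaction term asks whether a combination differed from the sum of its single agents on the log2 scale. For EGR1 the single effects of 2DG and phenformin added up to 0.45, and the combination was at 1.96, so that the interaction was 1.51 ± 0.28 (SE, limma adjusted p = 0.0047). For IER3 the sum was 0.86 and the combination 1.77, an interaction of 0.91 ± 0.17 (limma adjusted p = 0.0061). IER2 and IER5 went the other way. The sum for IER2 was 0.61 and the combination 0.08, an interaction of -0.54 ± 0.10 (limma adjusted p = 0.0060). The sum for IER5 was 0.75 and the combination 0.20, an interaction of -0.55 ± 0.09 (limma adjusted p = 0.0026). SRF showed no departure that the test could find, 0.00 with a 95% interval of -0.44 to 0.45. These were 2 of 5 above the sum, against 1.38% of all genes tested, and 2 of 5 below it, against 3.59%.

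For GH and phenformin the interaction of IER2 was -0.39 ± 0.10 (SE, limma adjusted p = 0.038) and that of IER5 was -0.38 ± 0.09 (limma adjusted p = 0.031), 2 of 5 below the sum, against 3.73% of all genes. The interactions of EGR1, 0.79 ± 0.28, and of IER3, 0.51 ± 0.17, had the sign that they had with 2DG and did not pass (limma adjusted p = 0.11 and 0.098). These GH values were close to the threshold. The count was 0 to 4 of 5 over the libraries left out in turn, 0 without DMSO B, DMSO C, GH B, Phen A, Phen B or GH + Phen B and 4 without GH + Phen A.

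**Figure D4:**
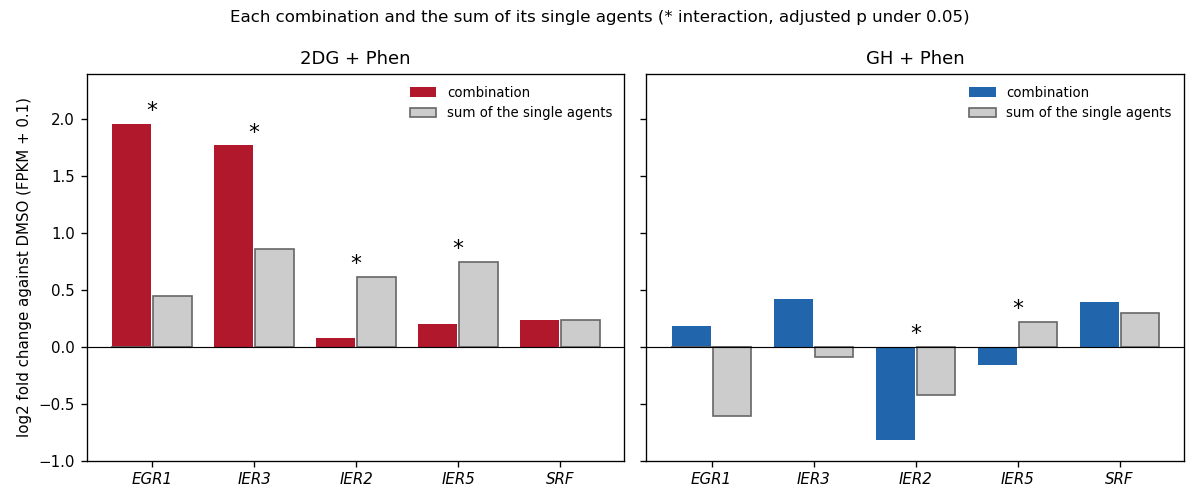
Difference from DMSO on the log2(FPKM + 0.1) scale (vertical axis) of each combination (coloured bars) beside the sum of its single agents (grey bars), with a star where limma's adjusted p of the interaction was under 0.05. EGR1 and IER3 exceed the sum in 2DG + Phen, with 1.96 beside 0.45 and 1.77 beside 0.86, and IER2 and IER5 fall short of it in both combinations.

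The libraries also differed in how gene levels went with GC content, and this moved with the groups. The slope of a library's log2 levels on GC, relative to the mean of the libraries and per 10 percentage points of GC, ran from 0.081 to 0.31 in 2DG + Phen, from -0.19 to 0.23 in GH + Phen and from 0.13 to 0.29 in 2DG. It ran from -0.17 to 0.043 in GH and from -0.36 to -0.21 in phenformin, against -0.30 to 0.047 in DMSO. DMSO C and GH + Phen A stood apart from the other libraries of their groups. The GC content of the members tested was 61.7% for IER2, 60.8% for SRF, 58.5% for IER3, 55.3% for EGR1 and 49.8% for IER5. When each library's trend with GC and length was removed, the results parted. EGR1 and IER3 in 2DG + Phen remained at 1.74 and 1.37 on the log2 scale, and EGR1 in GH at -0.96. IER5 in 2DG remained at 0.58, and IER2 in GH + Phen was at -1.26. All 5 passed the threshold there.

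Other calls did not hold in that fit. IER2 in 2DG was at 0.03 (limma adjusted p = 0.90, and 2.2e-06 to 0.90 over all its alternatives), although 3 of 3 libraries lay above DMSO in FPKM. IER3 in 2DG was at 0.24 (limma adjusted p = 0.079, and 5.0e-05 to 0.079 over its alternatives) and IER3 in GH + Phen was at 0.13. The falls of IER2 in GH, at -0.45, and in 2DG + Phen against 2DG, at -0.53, did not pass (limma adjusted p = 0.14 and 0.061). IER2 against DMSO turned to -0.49 in 2DG + Phen. SRF turned to -0.39 in 2DG and -0.28 in 2DG + Phen, both past the threshold. Among the interactions with 2DG, EGR1 at 1.44, IER3 at 0.77 and IER5 at -0.55 kept their calls, and IER2 at -0.64 did not (limma adjusted p = 0.15). The SE of IER2 in that fit was 0.19, against 0.07 in FPKM as deposited. Its FPKM replicates lay close together, while the slopes of those libraries did not. SRF behaved in the opposite way: its highest DMSO library, C, was the library with the highest slope of that group, and its lowest GH + Phen library, A, was the one with the lowest. Whether the trend with GC is technical was not tested. The share of fragments from mitochondrially encoded genes also differed, with means of 3.30% in 2DG + Phen and 3.75% in GH + Phen, against 5.29% in DMSO, and its part in these results was not tested beyond leaving those genes out of the totals, which changed no call of a member.

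**Figure D5:**
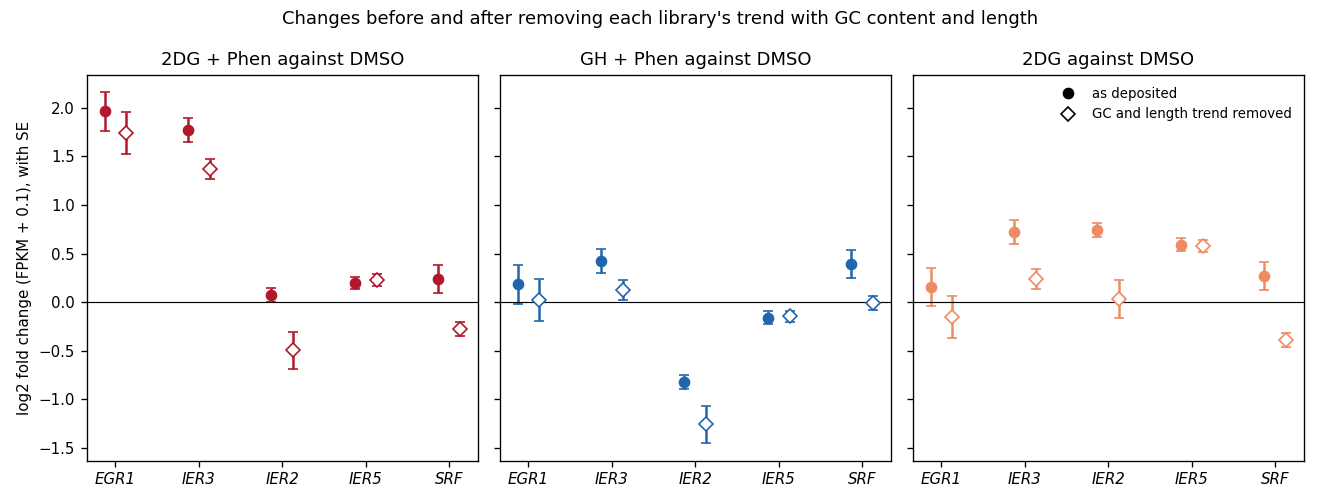
Difference from DMSO on the log2(FPKM + 0.1) scale (vertical axis) with its SE, as deposited (circles) and after the trend of each library with GC content and length was removed (open diamonds). EGR1 and IER3 in 2DG + Phen move to 1.74 and 1.37, while IER2 in 2DG moves to 0.03 and SRF turns below 0 in 2DG + Phen and 2DG.

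Around the members, a list of 23 other genes of the pathway held the RAF, MEK and ERK kinases, the RSK and MSK kinases, the partners of SRF and the regulators of EGR proteins. Of these, 19 entered the test. In 2DG, 8 rose and 4 fell, and the median log2 difference of the list was 0.06, against -0.05 over all genes tested. In 2DG + Phen 6 rose and 4 fell, with a median of 0.15, against -0.05. In GH + Phen 4 rose and 3 fell, and in GH and in phenformin 0 passed by limma in either direction. For this and the next lists, the shares of all genes tested that rose and fell were as follows. They were 24.7% and 30.3% in 2DG, 21.1% and 32.8% in 2DG + Phen and 9.4% and 18.6% in GH + Phen. In GH they were 2.29% and 3.63%, and in phenformin 0.339% and 0.206%. The corepressor NAB2, itself an EGR target, averaged 6.85 FPKM in 2DG, against 4.05 FPKM in DMSO, a rise of 0.76 ± 0.18 on the log2 scale (SE, limma adjusted p = 0.0041), and it fell by 0.81 ± 0.18 in 2DG + Phen against 2DG. NAB1, the other corepressor, fell by 0.55 ± 0.07 in 2DG + Phen and by 0.36 ± 0.07 in GH + Phen against DMSO. The ternary complex factor ELK4 was below the sum of the single agents in both combinations, by an interaction of -0.49 with 2DG and -0.55 with GH (limma adjusted p = 0.035 and 0.021). EGR4 was listed at 0 in all 18 libraries.

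Of 28 other immediate early genes listed, 19 entered the test. In 2DG + Phen 15 rose and 2 fell, with a median log2 difference of 1.0, against -0.05 over all genes. In GH + Phen 12 rose and 2 fell, with a median of 0.97, against -0.02. In 2DG 13 rose and 4 fell, in GH 3 rose and 8 fell, and in phenformin 3 rose and 1 fell. The zinc finger gene KLF6 averaged 49.2 FPKM in 2DG + Phen and 26.1 FPKM in GH + Phen, against 10.2 FPKM in DMSO. DUSP1, a phosphatase that switches off MAP kinases, averaged 11.9 and 11.4 FPKM in those combinations, against 3.48 FPKM in DMSO. Both rose in both combinations, KLF6 by 2.26 and 1.35 and DUSP1 by 1.75 and 1.69 on the log2 scale. In 2DG + Phen 7 of the 19 were above the sum of the single agents, as EGR1 and IER3 were, and 2 were below it. KLF6, CTGF, DUSP1 and ZFP36 were among the 7. Of all genes tested, 1.38% were above that sum and 3.59% below it. In GH + Phen 9 of the 19 were above the sum, KLF6, CTGF, DUSP1 and CYR61 among them, and 1 was below it. The shares of all genes there were 1.45% and 3.73%. FOS, FOSB and JUNB stayed under 0.6 FPKM in every library and did not enter the test. CYR61, a secreted matrix protein, averaged 29.0 FPKM in 2DG + Phen, against 101 FPKM in GH + Phen. Its mean in DMSO was 49.4 FPKM, so the combinations lay on opposite sides of it.

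A list of 14 SRF targets of the actin and muscle type held 11 genes that entered the test. In 2DG + Phen 8 rose and 1 fell, with a median log2 difference of 0.43, against -0.05 over all genes. In 2DG 8 rose and 0 fell, in GH + Phen 6 rose and 0 fell, in GH 1 rose, and in phenformin 0 passed by limma. The cytoplasmic actin ACTG1 averaged 531 FPKM in 2DG + Phen and 527 FPKM in GH + Phen, against 396 FPKM in DMSO, and rose by 0.43 ± 0.05 and 0.41 ± 0.05 on the log2 scale (SE). With the GC trend removed, 8 of this list rose and 0 fell in 2DG + Phen, and 10 rose and 0 fell in GH + Phen. Of all 12022 genes in that fit, 3372 rose and 2731 fell in 2DG + Phen, and 2425 rose and 2128 fell in GH + Phen. Of 12 targets of HSF1, all tested, 2 rose and 4 fell in 2DG + Phen, 5 rose and 1 fell in GH + Phen and 2 rose and 7 fell in 2DG. The medians of this list were -0.06, 0.11 and -0.20 on the log2 scale in these treatments, against -0.05, -0.02 and -0.05 over all genes. The chaperone HSPA1A averaged 14.0 FPKM in GH + Phen, against 6.57 FPKM in DMSO.

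Among the members, the levels of EGR1 and IER3 were close over the 18 libraries (Pearson r of log2(FPKM + 0.1) = 0.91), as were those of IER2 and IER5 (r = 0.91), and the next pair was IER3 and IER5 (r = 0.35). These are descriptions over libraries that share treatments. The genes outside the members with the highest r to EGR1 were NOLC1 (0.92), C6orf48 (0.90) and ARRDC3 (0.90). For IER3 they were SLC2A3 (0.97), a glucose transporter, ADM (0.95), a secreted peptide hormone, and TGIF1 (0.95), a transcriptional corepressor. For IER2 they were RHOB (0.92), PLEKHO2 (0.91) and NFYA (0.91), and for IER5 they were RHOB (0.95), PLEKHO2 (0.91) and ZBTB2 (0.89). RHOB, a small GTPase that is also an early response gene, and PLEKHO2 were thus named for both. SRF was closest to SLC25A42 (0.94), TPP1 (0.94) and RRNAD1 (0.94), none of which was named for another member.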

How the data were processed

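RNA from 18 libraries of T98G cells (6 groups, 3 biological replicates each) was made into stranded mRNA libraries and sequenced as paired ends. Mapping was done by the authors, by strand, against GRCh38 and the gene models of Ensembl release 89 (CLC Genomics Workbench, version 11), and they deposited FPKM values for 55128 genes.

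Genes that reached 0.5 FPKM in 3 or more libraries, 12108 in number, were compared on log2(FPKM + 0.1) with limma version 3.58.1 in R version 4.3.3. The model used a trend and 6 group coefficients with 12 residual degrees of freedom, and p-values were adjusted by Benjamini-Hochberg over all genes, with a threshold of 0.05. There were 12 comparisons: 5 treatments against DMSO, 5 between treatments and 2 interactions. Whole fragments were recovered from the steps of the FPKM values, at a tolerance of 0.001, for 25158 of the 25158 genes above 0, and limma's voom was run on them as an alternative. The median library held 20304455 mapped fragments. The chi-square per degree of freedom between replicates of a group was 1.32 to 34.2, above sampling noise, so none was counted as a repeat of another.

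GC content and length came from GENCODE 44, with a value for 12022 or 99.29% of the genes tested. The trend of each library was removed with natural splines of 4 (GC) and 3 (log2 length) degrees of freedom, which may take out true changes of GC-rich genes too. Promoter stretches came from RefSeq, and motifs were searched on both strands.

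The members and gene lists were chosen with earlier results of these data known. All 7 members are described. List genes named with values were, in the comparison given, among the 4 of lowest adjusted p, and for each member tested the 3 of highest r. FOS, FOSB, JUNB and EGR4, which did not enter the test, were named after their values were seen. The alternatives were other scalings, pseudocounts of 1 and 0.01, other filters, a fit of the groups compared alone, the replicate letter as a block, the GC correction, voom weights, the study's call rule and each of the 18 libraries left out in turn. Further alternatives, chosen after seeing the data, left out DMSO C and GH + Phen A together and set the filter without the 2DG + Phen libraries. Tables and figures used scipy version 1.17.1, matplotlib version 3.10.9, pandas version 2.3.3 and numpy version 2.4.6 under Python version 3.11.15. The model was tested on simulated data.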

Additional observations from a re-analysis of the deposited data

Results flagged for a closer look

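The effect of phenformin differed between cells with and without 2DG in 4 members, by the interaction term of limma with Benjamini-Hochberg adjustment. It was 1.51 for EGR1 (limma adjusted p = 0.0047) and 0.91 for IER3 (limma adjusted p = 0.0061) on the log2 scale, with every 2DG + Phen library above every 2DG and phenformin library. It was -0.54 for IER2 (limma adjusted p = 0.0060) and -0.55 for IER5 (limma adjusted p = 0.0026), with every 2DG + Phen library below every 2DG library. The IER2 call was lost with the GC and length trend removed (limma adjusted p = 0.15).

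The effect of phenformin also differed between cells with and without GH in IER2, by -0.39 (limma adjusted p = 0.038), and in IER5, by -0.38 (limma adjusted p = 0.031). In both genes 3 of 3 GH + Phen libraries lay below 3 of 3 GH libraries and 3 of 3 phenformin libraries. Both calls were lost in a fit of the groups compared alone (limma adjusted p = 0.11 for IER2 and 0.077 for IER5). Both were also lost with no filter on low values and without DMSO B, DMSO C, GH B, Phen A, Phen B or GH + Phen B. The IER5 call was lost without Phen C too. The IER2 call was lost without DMSO A, GH A, GH C, 2DG C or 2DG + Phen C as well. It was further lost with median-of-ratios scaling, a pseudocount of 1 or voom weights.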

How the results depend on the processing

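Of 1920 values of the members under an alternative, 79 lost a call, 28 gained a call, 15 turned their direction with a call in at least 1 of the fits, and 1798 kept their side of the threshold, 35 of them with a change of sign in an uncalled value. The 15 turns with a call came with the GC and length trend removed, without or with a replicate block. Under both, SRF was at -0.39 in 2DG and -0.28 in 2DG + Phen against DMSO, at -0.45 in 2DG + Phen and -0.18 in GH + Phen against phenformin, and at -0.37 in its GH interaction. IER2 in 2DG + Phen was at -0.49 against DMSO and -0.61 against phenformin. SRF in GH + Phen against GH was at -0.20 under both, with a call under the block only. The members called were then 5 in 2DG + Phen against DMSO and 1 in GH + Phen against DMSO, and with the block 4 in GH against DMSO. By the study's rule set on limma's values, 0 members were called in 2DG, in GH and in both interactions. The same held in GH + Phen against DMSO, GH or phenformin. In 2DG + Phen against 2DG and against GH + Phen, 2 were called. In a fit of the groups compared alone, 0 were called in GH, in GH + Phen against GH and in the GH interaction, and 1 in GH + Phen. The GH interaction had 1 with median-of-ratios scaling, a pseudocount of 1 or voom weights, 0 without a filter and 4 without DMSO C and GH + Phen A. Leaving out each library in turn gave 0 to 2 in GH, 1 to 3 in GH + Phen against DMSO and 0 to 4 in the GH interaction.

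The letters A, B and C were not taken as pairs, since not every same-letter pair correlated: deviations from the group means correlated at -0.43 to 0.59 over 45 pairs. A correlation over 0.1 was found in 10 of 15 pairs of A, 4 of 15 of B and 15 of 15 of C, and 12 of 18 libraries correlated best with their own letter (a hint from the data, not the design). A replicate block added 5 calls, SRF in 2DG (limma adjusted p = 0.049), in GH + Phen (0.014) and in 2DG + Phen against phenformin (0.042), and IER3 in GH + Phen against phenformin (0.017) and in the GH interaction (0.022), and lost none. EGR1 rests on 10 to 45 fragments a library outside 2DG + Phen, and EGR2 and EGR3 lie under what this depth can compare.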
